A study of Mus musculus with 6 samples.

Results

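RNA was sequenced from the whole cerebellum of mice on postnatal day 0, and the 10 genes described here encode receptors of the BMP, activin and TGF-beta families. They were taken by symbol from a table of 23793 loci, in which each of the 10 had 1 row of its own that carried no other symbol. They are the type I receptors Bmpr1a, Bmpr1b, Acvr1, Acvr1b and Tgfbr1, the type II receptors Bmpr2, Acvr2a, Acvr2b and Tgfbr2, and the type III receptor Tgfbr3. The 3 conditional knockout (cKO) libraries have the genotype Zeb2 f/f; hGFAP-cre and the 3 control libraries Zeb2 f/+; hGFAP-cre, so that every animal carried the Cre and at least 1 floxed Zeb2 allele. The human GFAP promoter of hGFAP-cre is active in neural progenitors and glia, and cells outside that lineage keep their Zeb2. The labels do not say whether a library came from 1 animal or from several, and every p-value therefore speaks of these libraries' own spread, which may be technical.

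Ligands of this superfamily bring a pair of type II receptors together with a pair of type I receptors, and the type II kinase switches on the type I kinase. The type I receptor decides the branch: those for BMPs pass the signal to Smad1, Smad5 and Smad9, and those for activins and TGF-beta pass it to Smad2 and Smad3. Type III receptors have no kinase and present ligand to the others. In the embryonic hindbrain, BMPs from the roof plate induce the rhombic lip, from which granule neurons come. Zeb2 encodes a zinc finger repressor that was isolated as a protein binding activated Smads, which is why receptor levels are of interest when it is deleted.

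None of the 9 receptors that could be tested passed an adjusted p of 0.05 between cKO and control libraries (limma on log2(FPKM + 1), Benjamini-Hochberg over all 13612 loci tested). Among all loci 0.573% of loci passed, 33 of them higher and 45 lower. An unadjusted limma p under 0.05 was reached by Tgfbr2 alone, 11.1% of the receptors tested against 17.6% of all loci. Tgfbr3 lay under the filter, which asked for 1 FPKM or more in 3 libraries, and its values are given from a fit without that filter. FPKM is scaled for transcript length and library size, so levels can be set side by side between genes.

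Zeb2, whose row also carries the microRNA symbol Mir5129, was at 6.19, 3.89 and 5.81 FPKM in cKO libraries, against 11.4, 9.52 and 7.995 FPKM in control libraries. The groups did not overlap, with a log2 fold change of -0.77 (SE 0.18, limma adjusted p = 0.107), which did not pass. Markers of the cerebellum were present in all libraries, among them the Purkinje cell gene Pcp2 (150 ± 3.66 FPKM in cKO, 147 ± 17.5 FPKM in control, SD, n = 3 each) and the granule progenitor gene Atoh1 (8.65 ± 2.30 FPKM in cKO, 12.04 ± 1.71 FPKM in control). Xist, which is transcribed from the inactive X chromosome, was between 141.8 and 147 FPKM in cKO libraries and between 0.331 and 0.515 FPKM in control libraries, and the Y-linked gene Eif2s3y was at 0.0766 ± 0.0435 and 35.8 ± 1.36 FPKM (SD, n = 3 each). Genotype and sex therefore cannot be told apart in any comparison below. All 10 receptor genes are autosomal, which does not lift this limit. By its title 1 library is cKO 1 while its description carries the number 3, and titles were followed. Low values of control 1 and cKO 3 shared a pattern of steps, as did those of the other 4 libraries, and log2 differences within each set are given for every receptor.

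The levels of the receptors spread over more than an order of magnitude and stood in nearly the same order in both groups. Acvr1b, the main type I receptor for activins, was the most abundant, followed by Acvr2a, an activin receptor of type II, and Bmpr1a, the type I receptor that binds Bmp2 and Bmp4. In cKO libraries the order was Acvr1b, Acvr2a, Bmpr1a, Bmpr2, Tgfbr1, Acvr1, Acvr2b, Bmpr1b, Tgfbr2 and Tgfbr3. In control libraries Bmpr1a stood before Acvr2a and the other 8 had the same places. Neighbours in that order whose ranges overlapped were Tgfbr1 with Acvr1 and Bmpr1b with Tgfbr2 in cKO libraries, and Bmpr1a with Acvr2a and Tgfbr1 with Acvr1 in control libraries; all other neighbours had separate ranges. The receptors for TGF-beta itself were thus uneven: Tgfbr1 averaged 11.5 ± 1.01 FPKM in cKO and 11.9 ± 1.32 FPKM in control libraries, and Tgfbr2 4.06 ± 0.692 FPKM in cKO and 3.12 ± 0.128 FPKM in control libraries (SD, n = 3 each).

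**Figure D1:**
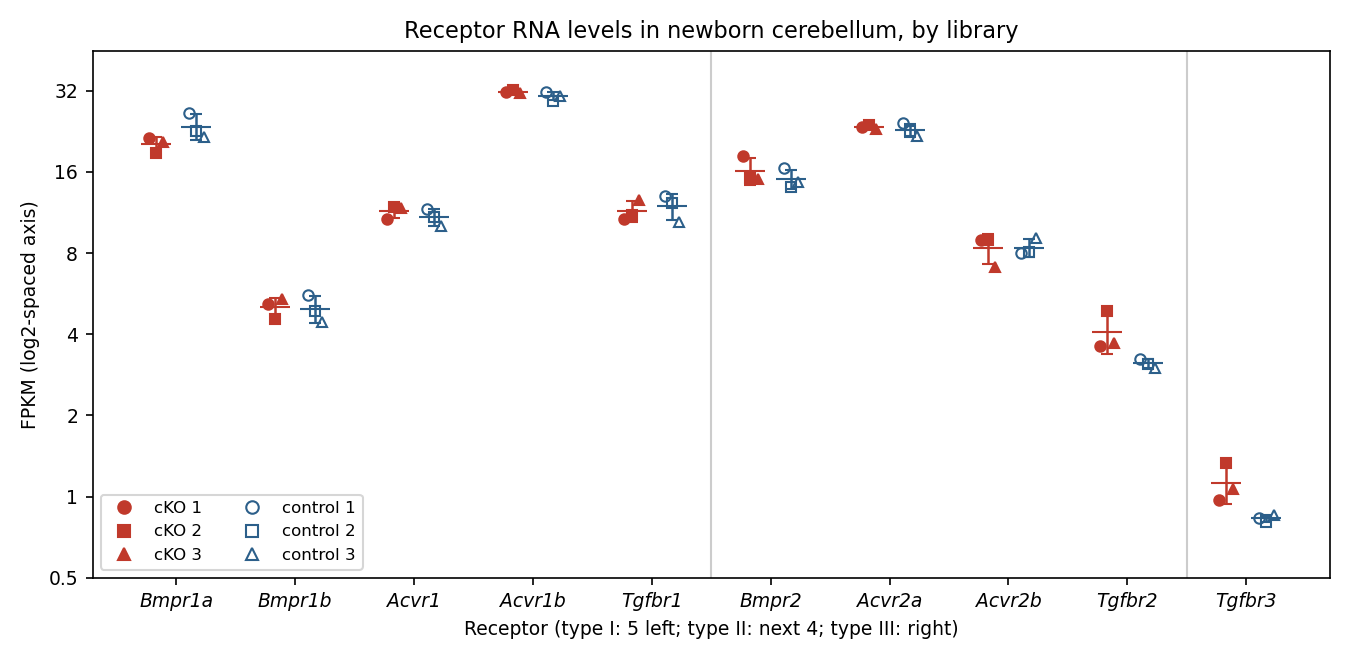
FPKM (log2-spaced axis) of the 10 receptors in each of the 3 cKO (filled red) and 3 control (open blue) libraries; horizontal bars are group means and vertical bars SDs. Bmpr1a had all cKO points under the control points, Tgfbr2 and Tgfbr3 had them above, and the groups of the other 7 receptors overlapped.

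Sequence before a RefSeq start site is shown for Bmpr1a and Tgfbr2, the tested receptors whose groups did not overlap, together with the stretch of Bmpr1b that holds the longer of the E-box motifs which Zeb proteins are known to bind. Sequences are from RefSeq (GRCm38.p6), read 5′ to 3′ on the gene's strand. Those of Bmpr1a and Tgfbr2 are the 250 bases before a RefSeq start site. The Bmpr1a stretch lies inside the span of its gene in GENCODE, whose 5′ end is at 34503341. The Bmpr1b stretch lies inside its gene too, whose 5′ end is at 142169425. Capitals mark CACCTG or its core CACCT on either strand (AGGTG is the core on the other strand).
Bmpr1a (chr14:34502547-34502796, minus strand): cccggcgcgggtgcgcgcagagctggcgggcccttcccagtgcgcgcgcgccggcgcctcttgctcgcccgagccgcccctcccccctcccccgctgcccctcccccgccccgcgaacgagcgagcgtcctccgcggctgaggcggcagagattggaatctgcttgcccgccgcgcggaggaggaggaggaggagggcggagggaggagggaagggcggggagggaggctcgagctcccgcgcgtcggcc
Tgfbr2 (chr9:116175364-116175613, minus strand): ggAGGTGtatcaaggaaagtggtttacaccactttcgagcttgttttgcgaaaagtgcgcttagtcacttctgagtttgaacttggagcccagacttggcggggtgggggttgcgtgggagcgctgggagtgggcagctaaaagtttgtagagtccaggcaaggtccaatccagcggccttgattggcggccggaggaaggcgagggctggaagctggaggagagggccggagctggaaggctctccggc
Bmpr1b (chr3:141982388-141982447, minus strand): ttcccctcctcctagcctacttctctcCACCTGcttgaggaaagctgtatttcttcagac
Of the 10 receptors, 9 had 1 or more windows of 300 bases (250 before and 50 after a start site) in the RefSeq table, 12 windows in all. The core CACCT on either strand was in 7 of the 12 windows, from 5 genes (Bmpr1b, Acvr1, Tgfbr1, Bmpr2 and Tgfbr2), and was in 51.9% of all 32851 promoter windows of the mouse table. The 3 windows of Bmpr1b each held it, and 2 of them overlap and share the same match. The longer CACCTG, which contains the core, was in 1 window, against 20.2% of all windows. In Tgfbr2 the core begins at position -248 from the start site. The Bmpr1a window held none, and 79.3% of its bases were G or C, against 59.0% in Tgfbr2. These matches are letters in a window and were not tested for binding.

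Among type I receptors of the BMP branch, Bmpr1a was at 21.3, 18.7 and 20.6 FPKM in cKO libraries, against 26.4, 22.8 and 21.5 FPKM in control libraries. The groups did not overlap, but the gap between the highest cKO value and the lowest control value was small beside the spread within either group. The cKO mean was 85.8% of the control mean, and the log2 fold change was -0.21 (SE 0.09, limma adjusted p = 0.284, 0.0502 before adjustment). Its 95% interval, which like all intervals here is not adjusted for the number of loci, ran from 0.749-fold to 1.00-fold on the FPKM + 1 scale. Without control 1 the log2 fold change was -0.13. Within the libraries sharing a step pattern it was -0.14 for the set of 4 and -0.34 for cKO 3 against control 1, and within deposits -0.28 for the earlier and -0.06 for the later one. By exact permutation (two-sided) p was 0.1 for Bmpr1a, as for Tgfbr2 and Tgfbr3, and no lower value is possible with 3 libraries in each group. The Bmpr1a gene (GRCm38 chromosome 14, 34410734 to 34503341, minus strand) shares 290 exonic bases with the antisense gene Gm17110, and since no source used here gives the strand setting of the alignment, reads of the pair cannot be told apart.

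Bmpr1b, the closest relative of Bmpr1a, was at 5.16, 4.58 and 5.40 FPKM in cKO libraries and at 5.61, 4.87 and 4.45 FPKM in control libraries. These ranges overlapped almost fully (log2 fold change 0.02, SE 0.09, 95% interval 0.868-fold to 1.18-fold). Acvr1, a type I receptor for BMPs such as Bmp7, lay between 10.7 and 11.9 FPKM in cKO and between 10.1 and 11.7 FPKM in control libraries, with 2 of 3 cKO values above the highest control value (log2 fold change 0.06, SE 0.07, 0.929-fold to 1.18-fold). For cKO 3 against control 1 the log2 difference was -0.05 for Bmpr1b and 0.01 for Acvr1, and within the set of 4 libraries 0.05 for Bmpr1b and 0.09 for Acvr1.

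In the activin and TGF-beta branch, Acvr1b was at 31.5, 32.1 and 31.3 FPKM in cKO libraries and at 31.5, 29.4 and 30.5 FPKM in control libraries. It had the narrowest interval of the receptors tested (log2 fold change 0.05, SE 0.05, 0.961-fold to 1.12-fold). Tgfbr1, the partner of Tgfbr2, lay between 10.7 and 12.6 FPKM in cKO and between 10.4 and 13.0 FPKM in control libraries (log2 fold change -0.05, SE 0.10, 0.825-fold to 1.13-fold). For cKO 3 against control 1 the log2 difference was -0.01 for Acvr1b and -0.04 for Tgfbr1, and within the set of 4 libraries 0.08 for Acvr1b and -0.05 for Tgfbr1. Summed over the 5 type I receptors, the level was 79.8 ± 1.71 FPKM in cKO and 81.8 ± 5.79 FPKM in control libraries (SD, n = 3 each), a difference smaller than the control spread. The receptors of the BMP branch made up 46.0 ± 1.00% of that sum in cKO and 48.1 ± 1.37% in control libraries, with ranges that overlapped.

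Among type II receptors, Bmpr2, which pairs with the BMP type I receptors and is known for its mutation in inherited pulmonary hypertension, was at 18.3, 15.2 and 15.1 FPKM in cKO libraries and at 16.5, 14.1 and 14.6 FPKM in control libraries. Only cKO 1 lay above every control (log2 fold change 0.10, SE 0.09, 0.915-fold to 1.25-fold), and without it the log2 fold change was 0.0084. Acvr2a lay between 23.1 and 23.9 FPKM in cKO and between 21.7 and 24.2 FPKM in control libraries (log2 fold change 0.04, SE 0.05, 0.939-fold to 1.12-fold). It shares 446 exonic bases with Orc4 on the opposite strand, a subunit of the origin recognition complex, and the same limit of strand applies. Acvr2b, its close relative, lay between 7.12 and 8.97 FPKM in cKO and between 7.98 and 9.08 FPKM in control libraries (log2 fold change -0.01, SE 0.10, 0.844-fold to 1.17-fold), and the sign of that value depended on the scaling of the libraries. All 3 of these receptors had opposite signs in the sets of libraries: for cKO 3 against control 1 the log2 difference was -0.12 for Bmpr2, -0.07 for Acvr2a and -0.15 for Acvr2b, and within the set of 4 it was 0.20 for Bmpr2, 0.09 for Acvr2a and 0.06 for Acvr2b.

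Tgfbr2, the type II receptor that binds TGF-beta and recruits Tgfbr1, had the largest log2 fold change of the 9 receptors in either direction. It was at 3.62, 4.86 and 3.71 FPKM in cKO libraries, against 3.25, 3.11 and 2.99 FPKM in control libraries. All cKO values lay above all control values, and cKO 2 lay well above the other libraries. The cKO mean was 1.30-fold the control mean, with a log2 fold change of 0.29 (SE 0.10, limma adjusted p = 0.229, 0.0276 before adjustment) and a 95% interval from 1.03-fold to 1.45-fold on the FPKM + 1 scale. Without cKO 2 the log2 fold change was 0.18. It was 0.36 within the set of 4 libraries and 0.15 for cKO 3 against control 1, and 0.32 and 0.24 within the earlier and the later deposit. The coefficient of variation was 17.0% over the cKO libraries and 4.09% over the control libraries. The gene lies on GRCm38 chromosome 9, 116084293 to 116175360, minus strand.

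Tgfbr3, or betaglycan, presents TGF-beta to Tgfbr2 and also binds inhibin, which lets inhibin block activin at its type II receptors. It was at 0.969, 1.34 and 1.07 FPKM in cKO libraries, against 0.834, 0.807 and 0.856 FPKM in control libraries. Here too all cKO values lay above all control values, with cKO 2 the highest. In the fit without a filter, over 19852 loci, the log2 fold change was 0.21 (SE 0.07, limma adjusted p = 0.294, 0.0297 before adjustment), and the cKO mean was 1.35-fold the control mean. Within the set of 4 libraries the log2 difference was 0.23, and for cKO 3 against control 1 it was 0.18. Its gene shares 297 exonic bases with Gm43422, an unconfirmed transcript on the same strand.

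Groups that did not overlap were thus found for 2 of the 9 tested receptors (22.2%), against 23.9% of all loci tested (10.3% with cKO above, 13.6% with cKO below), and for 3 of all 10 (30.0%), against 20.2% of the loci not at 0 in every library. These shares are near the background. The 20.2% covers loci over and under the filter, and 9 of the 10 receptors lay over it. The median log2 fold change of the 9 was 0.04, with 6 above and 3 below 0, and that of all loci tested was -0.01. The receptor median was 0.0084 without cKO 1, 0.015 without control 3 and 0.078 without control 1, so its size rested on single libraries. The median size of the log2 fold change without regard to sign was 0.05 over the receptors and 0.09 over all loci tested. For the 7 tested receptors with overlapping groups, the 95% intervals lay between 0.825-fold and 1.25-fold, and each receptor's own interval, given above, is as wide or narrower.

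**Figure D2:**
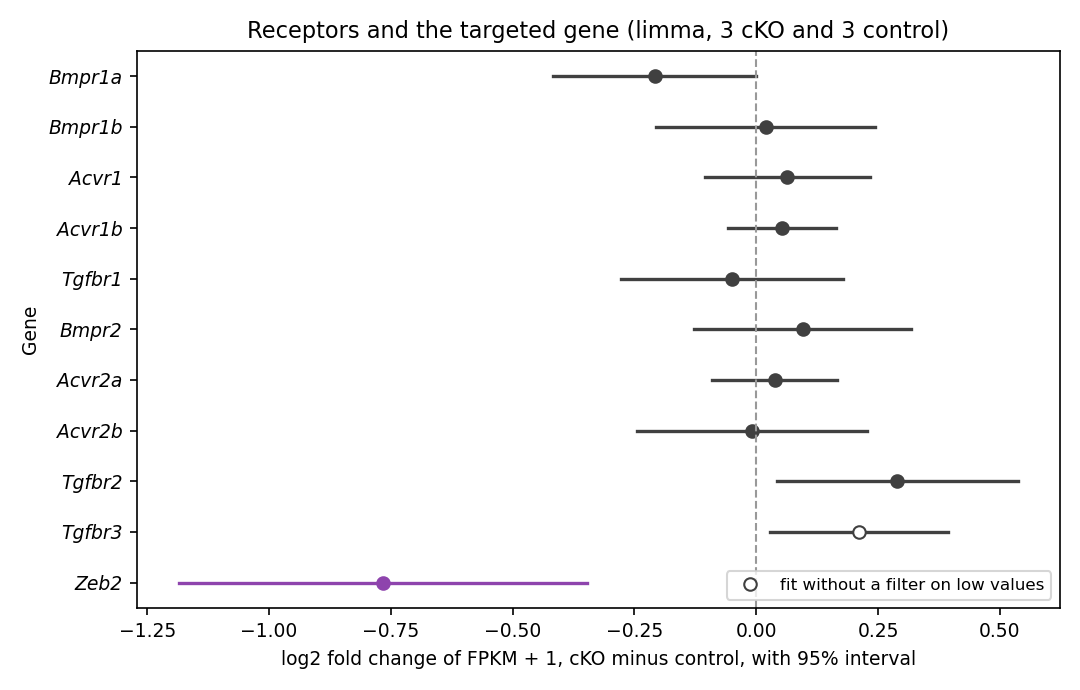
Log2 fold change of FPKM + 1, cKO minus control, with its unadjusted 95% interval, for the 10 receptors and Zeb2 (limma, 3 cKO and 3 control libraries); the open point is Tgfbr3, fitted without a filter on low values. The intervals of Tgfbr2 and Tgfbr3 lay above 0 and that of Bmpr1a reached 0 at its upper end, and none of the 10 receptors passed the adjusted threshold.

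In bulk tissue, fewer cells of a type and less RNA per cell cannot be told apart, and the receptors are expressed by several cell types of the cerebellum. Tgfbr2 and Tgfbr3 are known from vessels, meninges and microglia. The summed FPKM of 8 endothelial markers lay between 79.0 and 85.0 in cKO and between 69.0 and 79.3 in control libraries, and that of 8 mural cell markers between 44.7 and 51.9 in cKO and between 42.2 and 45.7 in control libraries. That of 8 meningeal fibroblast markers lay between 30.3 and 75.2 in cKO and between 25.5 and 43.3 in control libraries. Pdgfra made up 17.4 of the 26.7 FPKM in control 2 and 18.5 of the 25.5 FPKM in control 3. Its log2 fold change was negative (-0.29), and those of the other 7 were positive. The summed FPKM of 8 microglia markers lay between 52.4 and 58.3 in cKO and between 41.6 and 44.5 in control libraries, and 6 of the 8 had every cKO value above every control value, against 10.3% of all loci tested. The fibroblast and mural sums were highest in cKO 2, as were Tgfbr2 and Tgfbr3, and the endothelial and microglia sums were highest in cKO 1. Zeb2, Bmpr1a and Gdf10 were lowest in cKO 2. For Bmpr1a, the sum of 8 Bergmann glia markers lay between 1821 and 1992 in cKO and between 2099 and 2174 in control libraries. Of that sum, Fabp7 alone made up between 1547 and 1599 FPKM in cKO and between 1524 and 1624 FPKM in control libraries. Its log2 fold change was 0.0032, those of the other 7 were negative, and the median of the 8 was -0.62. The sum of 8 granule progenitor markers lay between 564 and 629 in cKO and between 638 and 724 in control libraries. That of 8 Purkinje cell markers, Calb1 among them, lay between 433 and 480 in cKO and between 402 and 432 in control libraries. All cKO values lay below all control values for 5 of 8 Bergmann glia and 4 of 8 granule progenitor markers, against 13.6% of all loci tested. Of the 8 Purkinje cell markers, 4 had all cKO values above all control values, against 10.3% of all loci tested, and 1 had them below. Ppp1r17, among those 4, and the microglia marker Tmem119, whose groups overlapped, lay under the filter and are not among the loci tested. In the endothelial list the groups were apart upward for 1 marker, and in the mural and fibroblast lists for 2 markers each upward and 1 each downward. No marker of these 7 lists was at 0 in every library, and the part of these cell types in the receptor values was not tested. Single markers behind the sums were Cldn5 and Pecam1 of endothelium (log2 fold changes 0.15 and 0.06), Pdgfrb and Rgs5 of mural cells (0.16 and -0.14), Col1a1 and Col1a2 of fibroblasts (1.07 and 0.54), Csf1r and Cx3cr1 of microglia (0.48 and 0.28), Slc1a3 of Bergmann glia (-0.81) and Barhl1 of granule progenitors (-0.16), of which Csf1r alone passed (limma adjusted p = 0.0483). Over all 7 lists 1 more marker passed, Gpr37l1 of Bergmann glia, at 1.44, 1.32 and 1.59 FPKM in cKO libraries, against 6.93, 5.25 and 4.596 FPKM in control libraries (log2 fold change -1.41, SE 0.13, limma adjusted p = 0.0110).

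**Figure D3:**
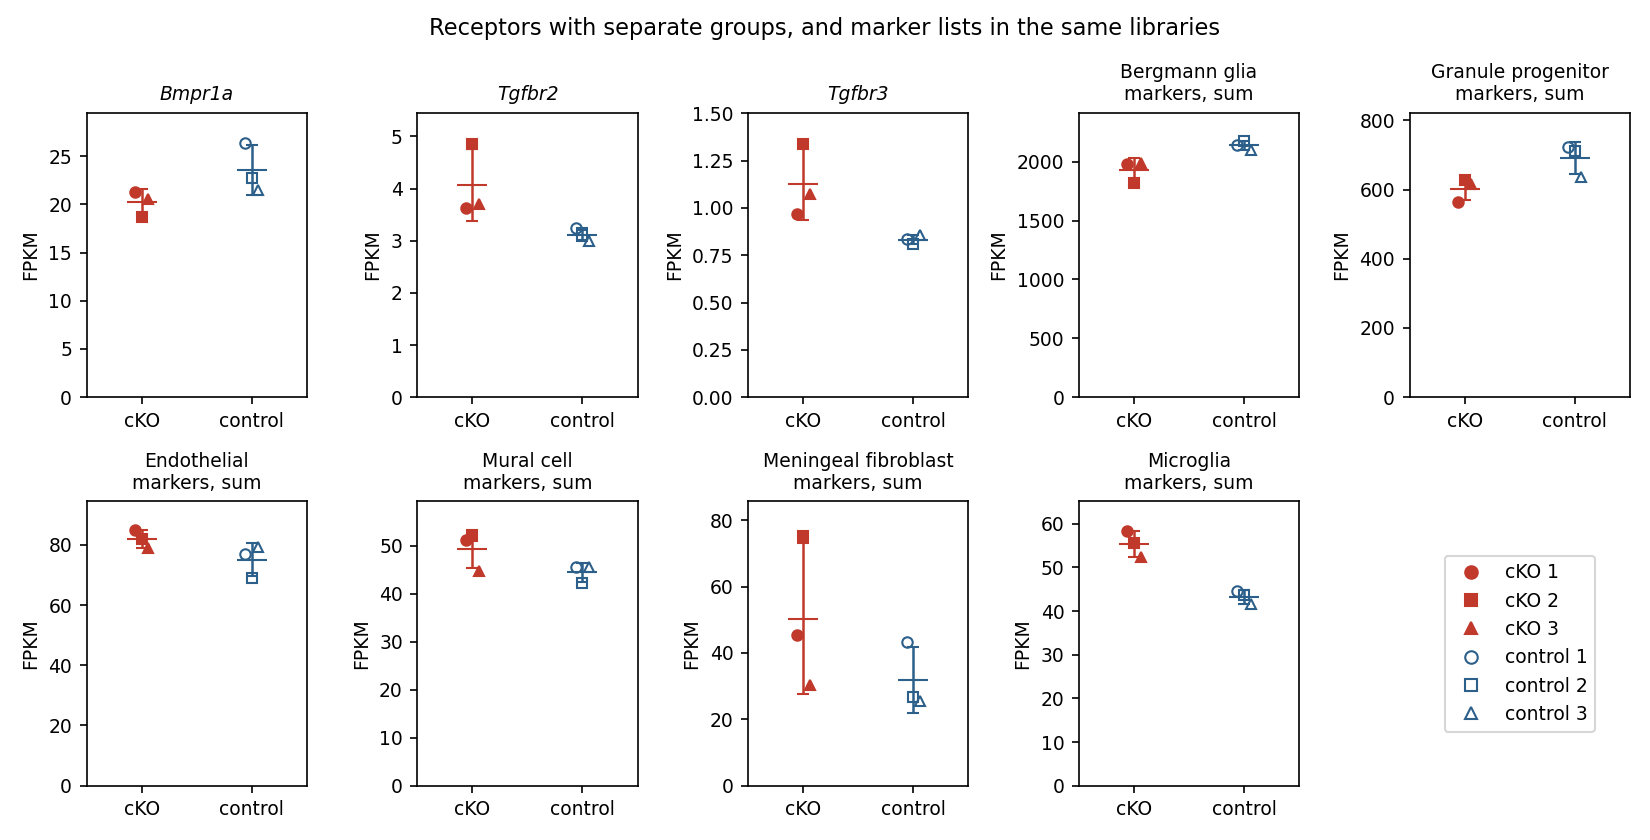
FPKM of the 3 receptors whose groups did not overlap, and summed FPKM of 6 marker lists, by library (cKO left, control right; horizontal bars are means and vertical bars SDs, all axes from 0). The microglia sum was above 52 FPKM in all cKO and under 45 FPKM in all control libraries. Tgfbr2, Tgfbr3, mural cell and meningeal fibroblast values were highest in cKO 2, which had the lowest Bmpr1a. The endothelial and microglia sums were highest in cKO 1.

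The genes around the receptors were followed in 7 lists of 85 symbols, 62 of which were tested. None of the 62 passed. An unadjusted limma p under 0.05 was reached by 11 of them (17.7%), against 17.6% of all loci. In 10 of the 62 all cKO values lay above the control values, and in 8 all lay below, against 10.3% and 13.6% of all loci.

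Of 20 ligands, 11 could be tested, and their median log2 fold change was 0.07. Gdf10, a BMP family member that is also in the Bergmann glia list, was at 74.9, 19.9 and 69.3 FPKM in cKO libraries, against 124, 120 and 99.6 FPKM in control libraries, the widest difference of any gene in the 7 lists (log2 fold change -1.26, SE 0.47, limma adjusted p = 0.241). Bmp7, which signals through Acvr1 with Bmpr2 or Acvr2a, was at 4.98, 6.79 and 4.74 FPKM in cKO, against 3.66, 3.85 and 3.51 FPKM in control libraries (log2 fold change 0.46, limma adjusted p = 0.136). Inha, the inhibin alpha subunit, which Tgfbr3 helps to bind, was between 23.1 and 24.1 FPKM in cKO and between 19.4 and 20.9 FPKM in control libraries (log2 fold change 0.20, limma adjusted p = 0.133). For these 3 ligands the groups did not overlap. The TGF-beta ligands Tgfb1, Tgfb2 and Tgfb3 had log2 fold changes of 0.09, -0.08 and -0.0001, with overlapping groups.

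Of 14 secreted antagonists, 11 were tested, with a median of 0.03. Chrdl1, a chordin relative that binds BMPs, was at 2.21, 2.88 and 2.52 FPKM in cKO, against 1.68, 1.80 and 1.59 FPKM in control libraries (log2 fold change 0.39, limma adjusted p = 0.107), and Chrd and Grem1, which bind BMPs too, had log2 fold changes of -0.15 and 0.19. Of the 10 symbols for latency and activation of TGF-beta, 7 were tested (median 0.04): Thbs1, an activator of latent TGF-beta, Lrrc32, which tethers it to the cell surface, and Ltbp3, which stores it in the matrix, had log2 fold changes of 0.24, 0.27 and -0.15. Of 10 further receptors and co-receptors, 5 were tested (median 0.09). Bambi, a receptor without a kinase that dampens signalling, was at 1.08, 1.09 and 1.26 FPKM in cKO, against 1.40, 1.48 and 1.38 FPKM in control libraries (log2 fold change -0.18, limma adjusted p = 0.285). Acvrl1, the type I receptor of endothelium, and Rgmb, a BMP co-receptor, had log2 fold changes of 0.17 and 0.05 with overlapping groups, and Acvr1c and Amhr2, the remaining type I and type II receptors of the family, stayed under 0.3 FPKM in every library.

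Inside the cell, the 6 Smads could all be tested, their median log2 fold change was -0.03 and none with groups apart. Smad4, the common partner of the receptor-activated Smads, was between 25.5 and 27.8 FPKM in cKO and between 27.5 and 31.0 FPKM in control libraries (log2 fold change -0.15, limma adjusted p = 0.285), and Smad3 and Smad5 had values of -0.19 and -0.06. Of 15 intracellular regulators (median -0.01), the related Smad corepressors Tgif1 and Tgif2 both had every cKO value under every control value: Tgif1 was at 8.77, 6.44 and 7.11 FPKM in cKO, against 9.83, 9.19 and 10.98 FPKM in control libraries (log2 fold change -0.39, limma adjusted p = 0.168), and Tgif2 had a log2 fold change of -0.29 (limma adjusted p = 0.200). Map3k7, the kinase TAK, had a log2 fold change of -0.12. Of 10 target genes 7 were tested (median 0.07). Msx2, a homeobox gene that BMPs induce, was at 3.52, 1.14 and 2.46 FPKM in cKO, against 5.82, 5.92 and 4.62 FPKM in control libraries (log2 fold change -0.997, SE 0.26, limma adjusted p = 0.135). Id4, an inhibitor of basic helix-loop-helix factors, and Ctgf, a matrix protein induced by TGF-beta, had every cKO value above every control value, with log2 fold changes of 0.26 and 0.38 (limma adjusted p = 0.189 and 0.119).

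**Figure D4:**
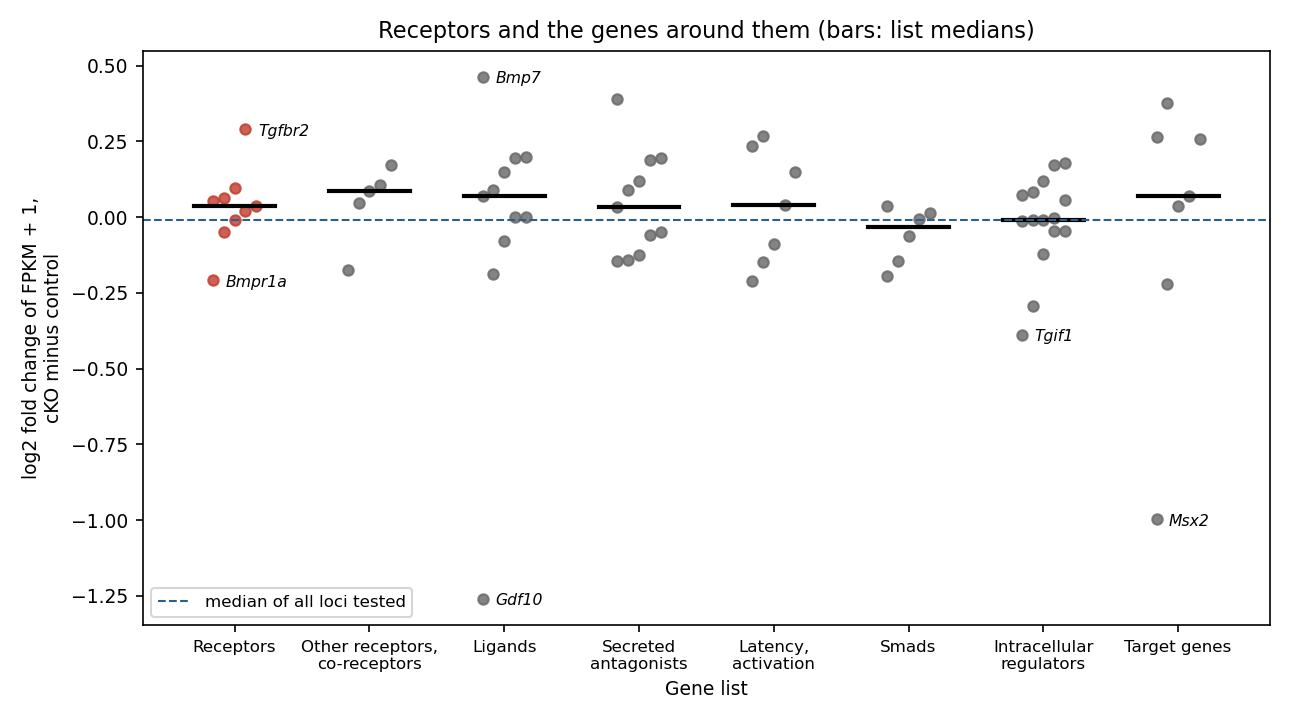
Log2 fold change of FPKM + 1, cKO minus control, of each tested receptor (red) and of each tested gene of 7 lists of the same pathways (grey), with list medians as black bars and the median of all loci as a dashed line. List medians lay between -0.03 and 0.09, while Gdf10 at -1.26 and Msx2 at -0.997 stood far from the rest.

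Loci whose pattern over the 6 libraries was most like that of a receptor were looked up among 9581 tested loci. This was done for the 3 receptors with the smallest p among the 9 tested, which leaves out Tgfbr3. These loci had a mean of at least 5 FPKM and 1 symbol, and gene models, Rik genes and small RNAs were passed over. Closest to Tgfbr2 were Rnf19b, Coq9 and Arhgap29 (Pearson r = 0.990, 0.989 and 0.988 over 6 libraries), closest to Bmpr1a were Rgs20, Utp15 and Pabpc1 (0.989, 0.988 and 0.988), and closest to Acvr1b were Nrarp, Ttl and Hs3st5 (0.996, 0.985 and 0.985). None of these 9 loci passed the threshold. With 6 libraries and that many loci, values of this size are a description only.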

How the data were processed

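The authors deposited 1 table of all libraries. Per the submitters' processing notes it was made with CASAVA, TopHat and Cufflinks on mm10. The deposited values were read as FPKM from the use of Cufflinks, its locus names and the values, since no label names the unit. No source used here gives the tool versions, the annotation, the strand setting or how libraries were scaled. Total RNA was extracted with Trizol and made into TruSeq RNA libraries, per the labels' protocols. Library sums were 497542 to 524474 FPKM. The number of reads is unknown, so no counting interval is given and low values such as those of Tgfbr3 are the least certain.

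The members, lists and tests were chosen with earlier results of these data known. From the deposited FPKM, log2(FPKM + 1) was fitted by limma-trend (limma version 3.58.1 under R version 4.3.3, two-sided, Benjamini-Hochberg over 13612 loci with 1 FPKM in at least 3 of 6 libraries, threshold 0.05). Fold changes are cKO minus control, and intervals are limma's, at 95%. Exact permutation tests used scipy 1.17.1. The code was tested on simulated data. Named genes were the receptors, Zeb2, the 3 members of each pathway list with the smallest p, the first 2 of each marker list, and the loci most like 3 receptors. Tgfb1, Tgfb2, Tgfb3, Acvr1c, Amhr2, Gpr37l1, Pdgfra, Fabp7, Ppp1r17, Tmem119 and those in the closing section were named after their values were seen. Positions are from GENCODE M21 (GRCm38), the build of the files. Libraries whose low values shared steps were found from the share of log2 ratios within a window of 0.06: 24.2 to 32.9% of loci in the 7 pairs of 1 set and 7.35 to 8.90% in the other 8 pairs. Deposits were read from the accession ranges. Figures were drawn with matplotlib 3.10.9.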

Additional observations from a re-analysis of the deposited data

How the results depend on the processing

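No receptor passed under any of the 20 alternatives tried (limma, 0 calls in each; among them a threshold of 0.1, and 2 added after seeing the data: the set of 4 libraries and the first deposit), and none of the 7 lists gave a call. Over the alternatives the adjusted p of Tgfbr2 (18 alternatives, as it lay under the mean of 5 FPKM) ranged from 0.186 to 0.476 and that of Bmpr1a from 0.194 to 0.5145. The direction held under every alternative for Bmpr1a, Acvr1b, Bmpr2, Acvr2a and Tgfbr2, but for cKO 3 against control 1 alone Acvr1b, Bmpr2 and Acvr2a had the opposite sign. With 1 library left out, Bmpr2 ranged from 0.0084 to 0.16, Acvr2a from 0.0037 to 0.078, Acvr1 from 0.015 to 0.11 and the receptor median from 0.0084 to 0.078, which was 0.084 in the set of 4 libraries. With a log2 fold change near 0, Bmpr1b turned to -0.088 in the first deposit and ranged from -0.045 to 0.094 with 1 library left out. Acvr1 turned to -0.0038 in the first deposit, Tgfbr1 ranged from -0.13 to 0.011 with 1 library left out, and Acvr2b from -0.059 to 0.090. Acvr2b was also at 0.015 with median centring, 0.016 with quantile normalization, 0.060 in the set of 4 libraries and 0.14 in the first deposit. For none of these was the cause tested.

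Zeb2 passed with small-RNA loci left out (log2 fold change -0.77, adjusted p = 0.0443), and its adjusted p otherwise reached 0.312. The count over all loci, 78, was 28 without a filter, 30 at a mean of at least 5 FPKM, 15 with the replicate number as a block, 22 with the deposit as a covariate, 30 in the set of 4 libraries, 330 without small-RNA loci, 336 with robust variances, 409 at a threshold of 0.1, and 21 to 55 with 1 library left out (21 without cKO 1, 27 without cKO 2 and 44 without cKO 3, and 33 and 28 when control 1 or control 2 was left out). The replicate block (0 receptors called, median log2 fold change 0.04) changed no call among the receptors or lists. Same-numbered libraries also share a deposit. Their deviations from the group means correlated at -0.03, 0.04 and 0.05, against -0.12 to 0.09 in the other pairs. With 3 libraries a group these values cannot show whether the libraries were paired. List medians moved most for ligands (0.18 in the set of 4, 0.17 in the first deposit, 0.0075 to 0.18 with 1 library left out), antagonists (-0.057 at a mean of at least 5, -0.0064 to 0.10), latency genes (-0.15 at a mean of at least 5, 0.17 in the first deposit, -0.067 to 0.16), target genes (0.16 at a mean of at least 5, 0.17 in the first deposit) and further receptors (-0.036 to 0.17 with 1 library left out). A mean of at least 5 FPKM left 5 of 11 antagonists, 3 of 7 latency genes and 4 of 7 target genes, and changed no gene's own log2 fold change. For the other shifts the cause was not tested. Depth is unknown, and 3 libraries a group leave small differences undetected. Since the intervals are not adjusted for the number of loci, differences as wide as an interval or wider can go uncalled too.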

Other observations

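Of 22 pathway genes under the filter, 7 (31.8%) had groups that did not overlap, against 20.2% of all loci not at 0 in every library. Those 19852 loci include the 13612 over the filter, where the share was 23.9%, so the share under the filter is below 20.2%. The 7 genes were picked after their values were seen, and are given from the fit without a filter, in which none passed (limma). Bmp4, a roof plate BMP that binds Bmpr1a and Bmpr1b, was at 0.307, 0.332 and 0.299 FPKM in cKO libraries, against 0.487, 0.414 and 0.408 FPKM in control libraries (log2 fold change -0.13, adjusted p = 0.204). Ltbp1, which holds latent TGF-beta in the matrix, was at 0.741, 0.620 and 0.811 FPKM in cKO, against 1.54, 1.31 and 0.904 FPKM in control libraries (log2 fold change -0.38, adjusted p = 0.246). Tgfbi, a matrix protein induced by TGF-beta, was at 0.786, 2.32 and 0.439 FPKM in cKO, against 0.399, 0.300 and 0.348 FPKM in control libraries (log2 fold change 0.60, limma adjusted p = 0.425). Its highest value was in cKO 2, the library with the highest Tgfbr2 and the lowest Zeb2 and Bmpr1a. The ligands Gdf6 (0.0635 to 0.101 FPKM in cKO, 0.0102 to 0.0203 FPKM in control libraries) and Bmp3 (0.509 to 0.536 FPKM in cKO, 0.406 to 0.462 FPKM in control), and the homeobox gene Msx1 (0.0876 to 0.215 FPKM in cKO, 0.0384 to 0.0390 FPKM in control), had all cKO values above the control values. The co-receptor Tdgf1 (0.0215 to 0.0420 FPKM in cKO, 0.0577 to 0.195 FPKM in control) had them below. The values of Gdf6, Msx1 and Tdgf1 lay near 0, where they are the least certain. The direction of Msx1 was opposite to that of Msx2, but no contrast can be drawn from values this low. Its log2 fold change was 0.13 in the fit without a filter (limma adjusted p = 0.257).

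Ratios between receptors in the same library do not depend on how the library was scaled. The ratio of Bmpr1a to Bmpr1b was 4.13, 4.09 and 3.81 in cKO libraries, against 4.71, 4.68 and 4.83 in control libraries, so these ranges were apart. The ratio of Tgfbr1 to Tgfbr2 was 2.96, 2.28 and 3.40 in cKO, against 4.002, 3.96 and 3.49 in control libraries. The share of Bmpr1a in the summed type I receptors was 26.9, 23.9 and 25.2% in cKO, against 29.9, 28.4 and 27.9% in control libraries. The pairs were chosen after the values were seen, they rest on the same differences in Bmpr1a and Tgfbr2 as above, and no test is given.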
